A study of Homo sapiens with 2 samples.

Results

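The RGS genes (regulators of G-protein signalling) were described in 2 array measurements of a human lymphoblastoid line, a B-cell culture that Epstein-Barr virus keeps dividing. The members were 8 genes, RGS1, RGS2, RGS3, RGS10, RGS13, RGS14, RGS16 and RGS19. They were taken by symbol: each probe set in the values used here whose platform annotation names exactly 1 gene, and that gene one of the 8, was a member probe set. This gave 17 probe sets of 36289 and 8 genes of 16716. These values run in identifier order and stop before the end of the array design, so further RGS probe sets of the array were not analysed here, and all counts of probe sets per gene refer to those used. Both samples belong to 1 group, with no treatment named, as replicates 1 and 2 of the line, which the titles spell GM06690 and the growth protocol GM06990. Results of 1 line may not hold for others, no other line or condition was analysed here, and the series title links the arrays to Hi-C work. Nothing was compared between conditions, and no p-value is given.

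G-protein-coupled receptors pass their signal to a G protein made of an alpha, a beta and a gamma subunit, and the alpha subunit is active while it holds GTP. RGS proteins bind the active alpha subunit through a shared RGS domain and speed up its GTP hydrolysis, which ends the signal. In B cells they are known for limiting the response to chemokines, and so for setting how cells move into and out of follicles and germinal centres. The family is divided by sequence into R4, R7, R12 and RZ subfamilies. R4 proteins are mostly small and act on Gi and Gq. R7 proteins need the beta subunit GNB5 as a partner. The R12 and RZ subfamilies hold RGS10 and RGS14, and RGS19 and its relatives.

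Values below are the log2 of the deposited probe set intensities, called log2 signals. The background level of an array was the 95th percentile of 111 genes listed as known mainly from single tissues, such as those of the liver or the retina. This was 6.08 on replicate 1 and 6.03 on replicate 2 (intensities 67.8 and 65.2). A gene or probe set counted as above background when it passed the level on both arrays. Not all of the 111 genes were dim here. KRT10 and MBP had mean log2 signals of 11.24 and 10.33, and without them the level was 5.69 and 5.64 on replicates 1 and 2. Each gene is given by its brightest probe set unless stated otherwise. Probe sets differ in affinity, so a higher signal of one gene than of another does not show more transcript. RNA came from whole cultures, so fewer expressing cells and less RNA per cell cannot be told apart. All 8 measured B-cell markers were above background, among them MS4A1 (CD20) at 13.12 and 13.26. None of the measured T-cell (8), NK-cell (6), myeloid (8) and platelet and erythroid markers (7) was above on both arrays. Of 6 fibroblast markers 1 was, COL1A1, at 7.35 and 7.13 by 2 of its 5 probe sets. The summed intensities of replicates 1 and 2 were 27547 and 28199 over the B-cell markers, against 199 and 175 for T-cell, 120 and 116 for NK-cell, 160 and 173 for myeloid, 192 and 226 for platelet and erythroid and 291 and 274 for fibroblast markers.

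Of the 8 RGS members, 7 were above background on both arrays, and RGS13 was not. The background over all genes was 49.7% (8301 of 16716), and the members had been chosen with earlier results of these arrays known. Their median log2 signal was 8.10, against 6.10 over all genes. By probe set, 10 of the 17 were above background, where 44.7% of all probe sets with 1 gene symbol were. With the 75th percentile as the level RGS13 was above on both arrays too, and with the 99th only RGS1 and RGS10 of the members were.

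A group of 3 members lies in a row of RGS genes on chromosome 1 with RGS18 and RGS21. Upstream sequences of the measured genes of the row are shown. They were picked because these neighbours gave unlike signals, and a link between sequence and signal was not tested. In the RefSeq order of protein-coding genes, RGS18, RGS21, RGS1, RGS13 and RGS2 follow each other with no other protein-coding gene between them. Each line gives the 250 bases before the annotated start, from RefSeq (GRCh38.p14). The array files name no build. Capitals mark matches, on either strand, to TATAAA (the TATA box), to TGGGAA (the core bound by RBPJ, the DNA-binding partner of Notch and of the viral protein EBNA2), to GAGGAA (a core bound by PU.1 and other ETS factors), and to GGG, 5 bases of any kind and CC (an NF-kB pattern).

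RGS18, GRCh38.p14, chr1:192158212-192158461, plus strand: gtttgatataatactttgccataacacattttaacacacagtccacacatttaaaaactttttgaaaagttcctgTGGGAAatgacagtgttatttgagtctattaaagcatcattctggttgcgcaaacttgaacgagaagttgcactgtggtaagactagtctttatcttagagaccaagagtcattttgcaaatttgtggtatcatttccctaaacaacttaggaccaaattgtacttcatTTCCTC
RGS1, GRCh38.p14, chr1:192575523-192575772, plus strand: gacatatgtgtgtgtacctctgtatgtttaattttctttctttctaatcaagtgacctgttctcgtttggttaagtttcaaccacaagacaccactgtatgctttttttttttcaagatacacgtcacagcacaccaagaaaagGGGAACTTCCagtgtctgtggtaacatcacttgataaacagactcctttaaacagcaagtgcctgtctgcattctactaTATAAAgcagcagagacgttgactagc
RGS13, GRCh38.p14, chr1:192635897-192636146, plus strand: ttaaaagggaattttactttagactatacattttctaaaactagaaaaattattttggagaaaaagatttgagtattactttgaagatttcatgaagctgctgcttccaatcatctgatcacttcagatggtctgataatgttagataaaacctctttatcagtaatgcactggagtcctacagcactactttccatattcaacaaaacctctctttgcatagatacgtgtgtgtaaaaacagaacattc
RGS2, GRCh38.p14, chr1:192808789-192809038, plus strand: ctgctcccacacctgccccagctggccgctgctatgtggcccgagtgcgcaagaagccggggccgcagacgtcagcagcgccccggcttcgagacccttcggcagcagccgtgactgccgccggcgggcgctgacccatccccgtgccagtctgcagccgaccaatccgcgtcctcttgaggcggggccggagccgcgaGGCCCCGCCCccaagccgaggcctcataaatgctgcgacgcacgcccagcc

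The RGS1 window held a TATA box whose first base lay 27 bases before the start and an NF-kB pattern 106 bases before it. The RGS13 window held none of the 4 patterns, nor did that of RGS21, which is not shown. The RGS2 window held 1 NF-kB pattern, in a stretch of G and C, and the RGS18 window held 1 RBPJ core and 1 PU.1 core. Over all 35116 RefSeq promoter windows of this length, 10.7% held TATAAA, 20.8% TGGGAA, 23.6% GAGGAA and 54.4% the NF-kB pattern, so the last is common by its letters alone. The windows also differed in CpG dinucleotides: RGS2 had 28 and a GC content of 72.8%, whereas RGS18 had 2 (34.8%), RGS1 had 3 (39.2%) and RGS13 had 1 (32%), beside a median of 11 over all windows. These are matches of letters, and binding was not measured.

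The neighbours of this cluster gave signals on both sides of the background level. RGS1, an activation gene of B cells that restrains their migration to chemokines, had log2 signals of 12.80 and 12.73 in replicates 1 and 2, by the probe set 216834_at. RGS13, the next gene and a known regulator of germinal centre B cells and mast cells, had 5.74 and 5.49. RGS2, which is known to prefer Gq alpha subunits, had 6.62 and 6.77. RGS1 lay far above background and RGS2 less than 1 log2 unit above it, while RGS13 lay under it on both arrays. RGS18, known from platelets and megakaryocytes, was at 3.39 and 3.30, and RGS21 was not analysed here. After RGS2, the protein-coding genes UCHL5 (10.74 and 10.70), RO60 (11.33 and 11.27), GLRX2 (10.96 and 10.87) and CDC73 (9.74 and 9.91) were all above background. B3GALT2, which lies within the span of CDC73, was at 3.33 and 3.22 and was not above. Within the row of RGS genes, calls at this background level therefore alternated over RGS18, RGS1, RGS13 and RGS2, the only measured genes of the row. Over all genes 49.7% were above this level, and the order of the calls was not tested. The alternation depended on the level chosen. With the 75th percentile as the level, RGS1, RGS13 and RGS2 were all above. With the 99th percentile RGS1 was above, and RGS13 and RGS2 were not.

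**Figure D1:**
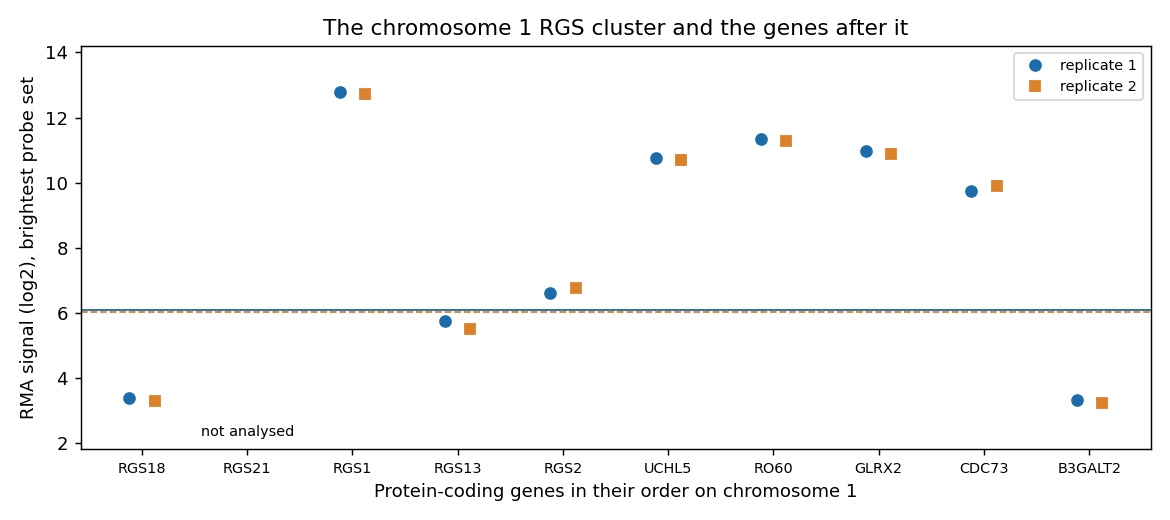
Log2 RMA signal (y axis, brightest probe set) of protein-coding genes in their order on chromosome 1 (x axis), from RGS18 to B3GALT2. Circles are replicate 1 and squares replicate 2, and the solid and dashed lines are the background levels of replicates 1 and 2 (6.08 and 6.03). RGS1 (12.80 and 12.73) stands above RGS18 and RGS13, the nearest measured genes on either side, which lie under the lines. RGS21, between RGS18 and RGS1, was not analysed.

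Chromosome 1 holds 11 of the RGS genes listed, 10 of them measured. Of these 4 were above background, beside 49.7% of all genes: RGS1, RGS2, RGS16 and RGS5. RGS16, an R4 member that lymphocytes induce on activation, had log2 signals of 7.57 and 7.29. Its next protein-coding neighbour RGS8, known from neurons, was at 4.36 and 4.20. RGS5, a gene of pericytes, had 6.51 and 6.79, and its neighbour RGS4, known from brain, had 4.12 and 4.42. In both of these pairs of adjacent genes, by the brightest probe set, 1 gene was above background on both arrays and the other on neither. For RGS5 this rested on 1 of its 5 probe sets, and with their mean it was not above.

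The members elsewhere in the genome (RGS3, RGS10, RGS14 and RGS19) were all above background, beside 49.7% of all genes. As stated, the members had been chosen with earlier results known. RGS3, on chromosome 9, an R4 protein that acts on Gi and Gq alpha subunits, had log2 signals of 8.75 and 8.77. RGS10, on chromosome 10, a small R12 protein that is little more than its RGS domain, had 11.49 and 11.53. RGS14, on chromosome 5, an R12 protein that also binds Rap and the inactive form of Gi, had 7.19 and 6.91. All 3 lay above the level on both arrays. RGS19, on chromosome 20, an RZ protein first found as a partner of GNAI3, had 9.53 and 9.47. The mean distance above the level over both arrays was 6.71 for RGS1, 5.46 for RGS10, 3.44 for RGS19, 2.70 for RGS3, 1.38 for RGS16, 0.99 for RGS14 and 0.64 for RGS2. RGS13 lay under the level by a mean distance of -0.44. These distances rest on the brightest probe set. For each other way of taking probe sets the level was computed anew. With the mean of all probe sets it was 5.77 and 5.75 on replicates 1 and 2. The distances were then 3.50 for RGS1, 2.19 for RGS10, 1.12 for RGS3, 0.46 for RGS14 and -1.62 for RGS13. Those of RGS2 (0.93), RGS16 (1.44) and RGS19 (3.74) were larger than with the brightest probe set. Without _x_at and _s_at probe sets the level was 5.63 and 5.62, and the RGS10 distance was 0.75. Among the members nearest the main level (6.08 and 6.03), RGS2 (margin SD 0.14, n = 2) and RGS13 (margin SD 0.14, n = 2) lay on their side of it on each array.

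Several members had probe sets that did not give the same call. Of the 6 members with more than 1 probe set, 4 had some above background and some not, RGS16 had both above and RGS13 had none of 3 above. For RGS1, 216834_at and 202988_s_at (11.03 and 11.06) were bright, while 202989_at was at 3.86 and 4.08. This last RGS1 probe set was under background on both arrays. For RGS10, 204319_s_at was the brightest, 204316_at had 6.36 and 6.39, just above the level, and 214000_s_at had 6.05 and 5.89, just under it. The last lay less than 0.2 under the level on each array. The second RGS3 probe set, 220300_at, had 4.87 and 5.15, and the second of RGS14, 211021_s_at, had 5.48 and 5.32. Both were under background. The RGS16 probe sets lay closest together, 209324_s_at at 7.57 and 7.29 and 209325_s_at at 6.94 and 6.99. The further RGS13 probe sets, 1568752_s_at (3.80 and 3.79) and 1568751_at (2.96 and 3.07), were lower than the one that represented the gene. RGS2 and RGS19 had 1 probe set each among those used, 202388_at and 204336_s_at.

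**Figure D2:**
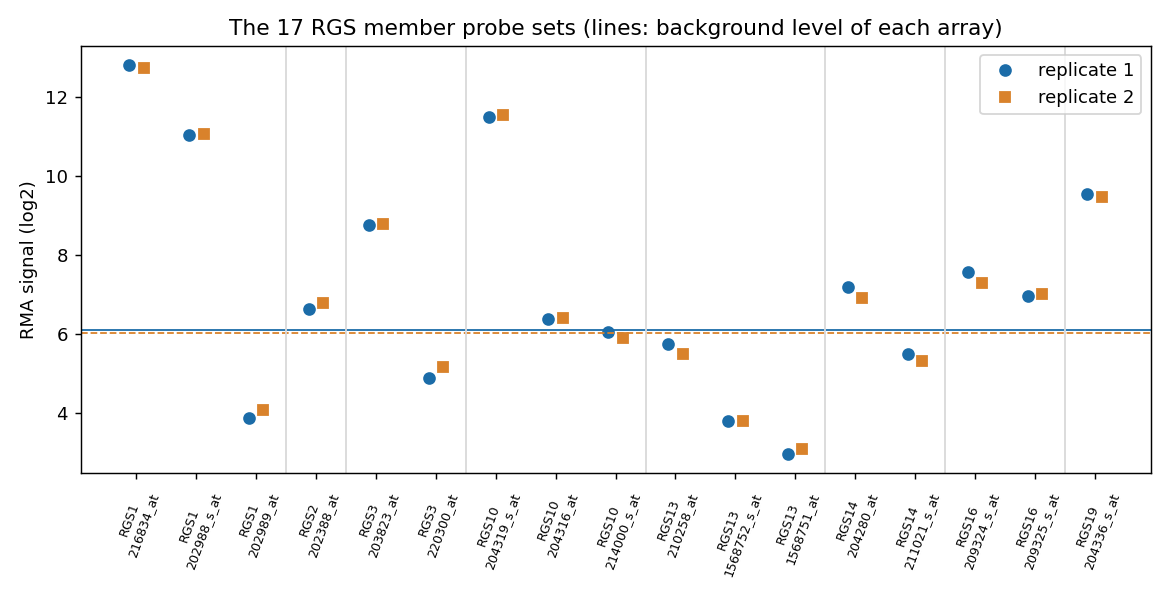
Log2 RMA signal (y axis) of each of the 17 RGS member probe sets (x axis, by gene and then by signal), with circles for replicate 1 and squares for replicate 2. The solid and dashed lines are the background levels of replicates 1 and 2. The replicates nearly coincide, whereas probe sets of 1 gene can lie on both sides of the lines, as for RGS1 (12.80 and 3.86 in replicate 1).

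The other RGS genes were mostly not above background. Of 14 measured genes of the remaining family, including RGSL1 and the anchoring protein gene RGS9BP, 2 were above background on both arrays, RGS5 and RGS20, against the 49.7% over all genes. RGS20, known for acting on the alpha subunit GNAZ, had log2 signals of 7.95 and 7.94 by 1 of its 2 probe sets. RGS5 was above by 1 of 5 probe sets, and neither with the mean of its probe sets nor without _x_at and _s_at probe sets. RGS4 was not above, nor were RGS6 (4.74 and 5.11) and RGS7 (3.70 and 4.04). By probe set, 2 of 35 were above background for these genes, compared with 10 of 17 for the members. The members had been chosen with earlier results known, so this difference was not tested.

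By subfamily, 5 of 9 measured R4 genes, 0 of 4 R7 genes, 2 of 3 R12 genes and 2 of 3 RZ genes were above background. Over all genes the share was 49.7%, and of the numbered RGS genes, members included, 9 of 20 measured were above (45%). The R4 genes not above were RGS13, RGS4, RGS8 and RGS18. The R7 genes, known from brain and retina, were RGS6, RGS7, RGS9 (3.61 and 3.56) and RGS11 (3.97 and 3.95). GNB5, the beta subunit that R7 proteins need, was itself above background at 7.80 and 7.98, by 3 of 4 probe sets, and the R7 anchor RGS9BP was at 3.80 and 3.82. In the R12 subfamily RGS12, a large protein with several domains, was not above by any of its 9 probe sets used (brightest 4.68 and 4.89). In the RZ subfamily RGS17 was at 3.85 and 3.39, and its array difference of -0.46 was measured under background.

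**Figure D3:**
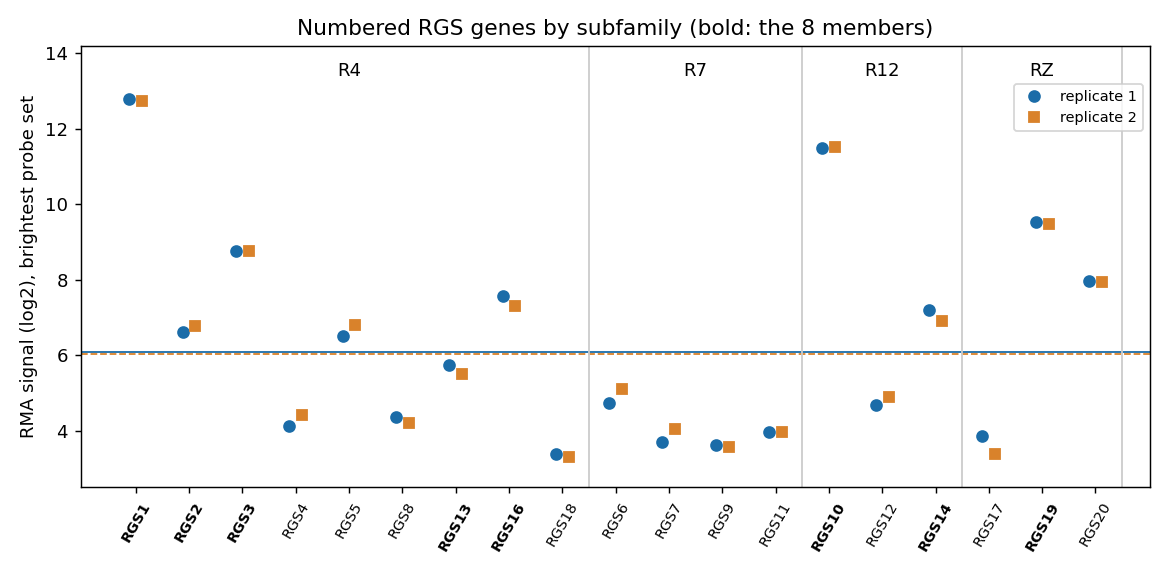
Log2 RMA signal (y axis, brightest probe set) of the measured numbered RGS genes of the R4, R7, R12 and RZ subfamilies (x axis), with the 8 members in bold. Circles are replicate 1, squares replicate 2, and the lines are the background levels. All 4 R7 genes lie under the lines, while the R4 genes run from RGS18 (3.39 and 3.30) to RGS1 (12.80 and 12.73).

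The alpha subunits on which RGS proteins act were partly above background, as were 49.7% of all genes. Of the 7 Gi and Go genes, 2 were above: GNAI2 (10.89 and 10.75) and GNAI3 (11.54 and 11.60), the Gi subunits that couple chemokine receptors in blood cells. GNAI1 was at 3.24 and 3.49, and GNAZ, the known target of RGS20, at 4.04 and 4.17. Neither was above background. Of the 8 other alpha genes 5 were above: GNA11 (7.06 and 7.14), GNA15 (7.58 and 7.07), GNAS (13.45 and 13.46), GNA12 (9.62 and 9.69) and GNA13 (12.55 and 12.56). The others were GNAQ (5.25 and 5.48), GNA14 (3.82 on both arrays) and GNAL (4.30 and 3.90). The Gq family was therefore above background through GNA11 and GNA15 and not through GNAQ or GNA14.

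Of the 14 measured beta and gamma subunit genes 8 were above background, including GNB1 (11.62 and 11.67) and GNB2 (9.50 and 9.47) but not GNB3 (4.78 and 4.88). Of 14 measured receptors of B cells 9 were above. The share over all genes, beside both of these counts, was 49.7%. CXCR4, the receptor for CXCL12, had 9.86 and 9.95, and CCR7, which guides cells to the T-cell zone, had 12.69 and 12.64. The receptors not above background were CXCR5 (4.04 and 4.18), which guides B cells into follicles, CCR6 (5.31 and 4.80), the germinal centre receptor S1PR2 (3.72 and 3.85), LPAR6 (4.30 on both arrays) and CXCR3 (5.75 and 5.45).

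Further along the pathway, 6 of 16 effector genes were above background. The adenylyl cyclase ADCY1 had 7.01 and 7.06 and ADCY3 had 8.53 and 8.39, whereas ADCY2 was at 4.20 and 4.19. Of 10 receptor kinases and arrestins, which switch receptors off, 5 were above: GRK2 (8.15 and 8.12), GRK3 (8.55 and 8.43), GRK5 (9.27 and 9.07), GRK6 (9.18 and 9.20) and ARRB1 (6.18 and 6.05). ARRB1 lay a mean of 0.06 above the level, by 1 of 4 probe sets. The retinal kinase GRK1 was at 3.79 and 3.95. Of 11 other regulators of the G-protein cycle 7 were above, among them GPSM2 (8.35 and 8.43) and GPSM3 (9.91 and 9.83), which bind inactive Gi, and AXIN1 (6.76 and 6.90), whose protein carries a domain related to that of RGS proteins. The 4 not above were GPSM1 (5.47 on both arrays), PCP2 (3.64 and 3.53), AXIN2 (4.77 and 5.05) and RAP1GAP (4.41 and 4.62). Over all lists other than the members, 44 of 94 measured genes were above background, a share near the 49.7% over all genes.

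**Figure D4:**
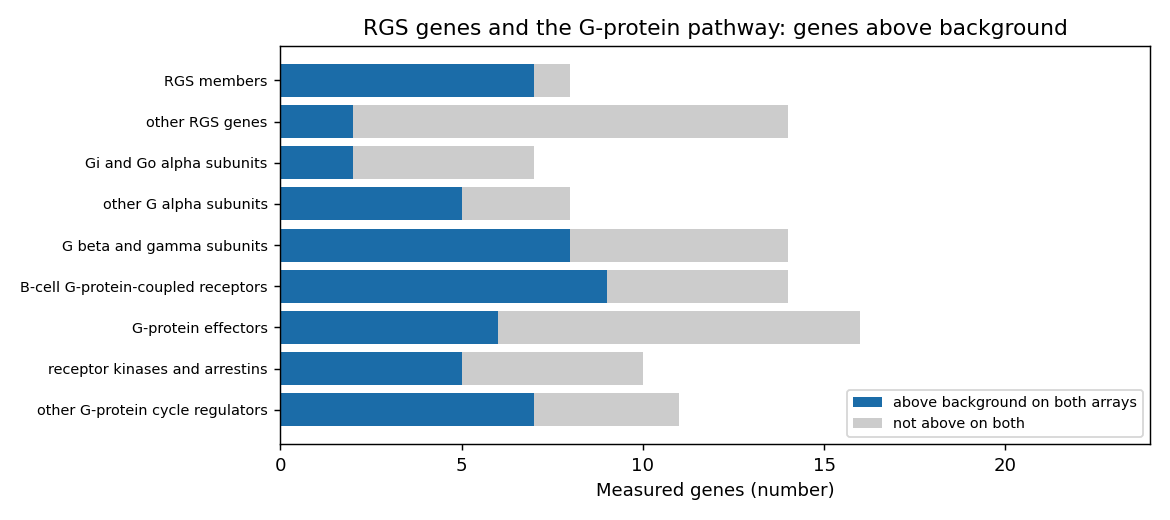
Number of measured genes (x axis) in the RGS and G-protein lists (y axis), with the blue part above background on both arrays and the grey part not above on both. The members (7 of 8) have the smallest grey part, and the other RGS genes (2 of 14) are mostly grey.

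For the members the median size of the difference between the replicates was near that over all genes. Differences are replicate 2 minus replicate 1 on the log2 scale, and a size over 0.3 was counted. None of the 8 members passed it, where 11.6% of all genes did (1936 of 16716). The differences ran from -0.28 (RGS16) to 0.15 (RGS2), with a median size of 0.11, against 0.10 over all genes. RGS14 (-0.27) and RGS13 (-0.25) were also higher in replicate 1, and RGS3 (0.02) and RGS10 (0.04) were nearly equal in both. For RGS16 the second probe set differed the other way (0.05), and for RGS14 the second differed the same way (-0.16), under background. Over the 17 probe sets, 9 were higher in replicate 2 and 8 in replicate 1. In 5 equal bins of mean signal, 8 of the 17 differed by more than the median of their bin, and the largest of them by rank, RGS16 209324_s_at, stood at percentile 89.2 of its bin. With 1 array per replicate this spread has no further check, and it may be technical, since the labels do not say that the replicates were separate cultures.

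**Figure D5:**
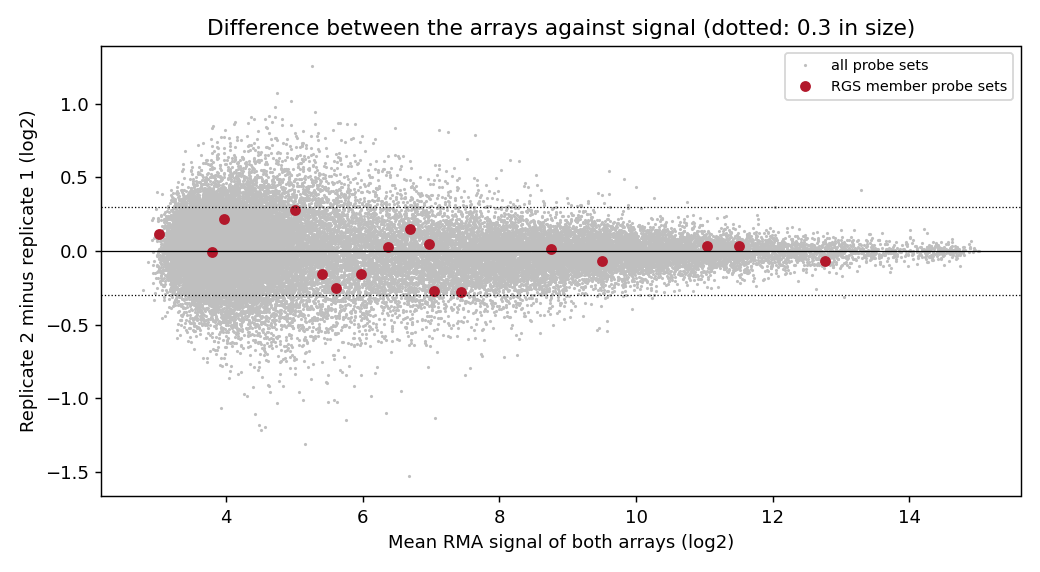
Difference between the arrays (y axis, replicate 2 minus replicate 1, log2) against the mean log2 signal of both arrays (x axis). Grey points are all 36289 probe sets and red points the 17 RGS member probe sets. All red points lie between the dotted lines at 0.3 in either direction, and the spread of the grey points narrows at high signal.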

How the data were processed

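Per the submitters' processing notes the authors used RMA (background correction, quantile normalization between arrays, summary per probe set), version not stated. The deposited values are intensities on a linear scale (6.29 to 33093) from Human Genome U133 Plus 2.0 arrays, and their log2 was taken here. RMA gives no detection call, and the number of arrays limits the precision. Of the 36289 probe sets given here, 29493 had 1 gene symbol, 1407 several and 5389 none. Symbols were updated by Entrez ID for 29461 (RefSeq, GRCh38.p14), and the rest kept the annotated name.

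A gene took its probe set with the highest mean. Of 130 tissue-restricted genes listed, 111 were measured. All 8 members matched RefSeq promoter windows, and the window at the gene's outer start was used. Members, lists and rules were chosen with earlier results of these data known. Named genes were all members, the other RGS genes above background and the first 3 not above, and in each further list the first 3 measured and the smaller side of the count if 5 or fewer. Further genes (chromosome 1 neighbours, the subfamilies, GNB5, GNAZ, the other alpha subunits above background, AXIN1, COL1A1) and the motifs were chosen after values were seen. Calls were tested on simulated data of plainly dim and plainly bright genes, which checks the code and cannot bear on genes near the level. Alternatives were the 75th and 99th percentile, the mean of all probe sets, no _x_at and _s_at probe sets, a second quantile normalization, each replicate alone, a minimum difference of 0.58 and, added after seeing the data, a reference list without MBP and KRT10. Python 3.11.15, pandas 2.3.3 and numpy 2.4.6 were used.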

Additional observations from a re-analysis of the deposited data

How the results depend on the processing

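The count of members above background was 7 with either replicate left out, after a second quantile normalization, with the mean of all probe sets and with the added reference list without MBP and KRT10, and RGS13 was the exception each time. Under that added list, chosen after seeing the data, RGS13 lay -0.05 from the level, above it in replicate 1 alone. At the 75th percentile all 8 members were above, RGS13 by 0.94, and 5 of 14 other RGS genes were. Over all genes, 10416 of 16716 were above at the 75th. At the 99th percentile, close to 10 on the log2 scale because KRT10 and MBP (11.24 and 10.33) are among the reference genes, 2 members (RGS1 and RGS10), 3 member probe sets, 0 other RGS genes, 10 of the 94 genes of the other lists and 2651 of all genes (8301 at the 95th) were above; the distances were then -3.32 for RGS2, -1.25 for RGS3, -2.96 for RGS14, -2.58 for RGS16 and -0.51 for RGS19. At that level the effectors, the kinases and arrestins and the other cycle regulators had 0 above, the other alpha genes 2, the beta and gamma genes 4 and the receptors 2. The effectors had 11 at the 75th. With the mean of all probe sets 1 other RGS gene, RGS20, was above, beside 7967 of all 16716 genes. Without _x_at and _s_at probe sets the level, computed anew, was 5.63 and 5.62 on replicates 1 and 2. In this planned setting 5 of the 6 members still measured were above, by 5 of 9 probe sets. RGS13 lay -0.007 from the level, above it in replicate 1 alone. RGS16 and RGS19 had no probe set left, and RGS10 was above by 0.75. Of the lists, 1 of 12 other RGS genes (RGS20), 3 of 9 beta and gamma genes, 2 of 8 kinases and arrestins and 4 of 9 cycle regulators were above. Of all genes still measured without _x_at and _s_at probe sets, 5963 of 13384 were above. No member differed between the arrays by over 0.3 or 0.58 under the settings tried. No paired analysis was possible because the labels give 1 group.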
